A study of Mus musculus with 3 samples.

Results

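Krt17 and Fn1 co-positive tumour cells are cells of mouse mammary tumours in which transcripts of a stress keratin and of a matrix glycoprotein were counted together. They were chosen by measured values: at least 3 transcripts of Krt17 and at least 3 of Fn1 in 1 segmented cell, with Krt5, Krt14 and Krt15 together under 10% and Col1a1 under 10% of the cell's panel transcripts. Cells with fewer than 20 panel transcripts were set aside, as were those smaller than 50 µm3 or larger than 3 times the median volume of their section. The rule found 18799 cells among 1963273 segmented cells, of which 1747403 passed the limits on transcripts and volume and are called kept cells. Co-positive cells are called members below, as a short name for this rule and not for an established cell type.

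The mice carry the polyoma middle T antigen (PyMT), an oncogene, under the mouse mammary tumour virus (MMTV) promoter, which is active mainly in mammary epithelium. Tissue from 3 distinct tumours, labelled MMTV-PyMT WT, was fixed in formalin and embedded in paraffin, and 1 section per tumour was imaged. The meaning of WT is not given in these sources, all tumours form 1 untreated group, and there is no normal gland or control genotype. Transcripts were read in place by MERFISH on the MERSCOPE platform, which images single molecules with a barcoded probe panel and assigns them to segmented cells.

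Keratin 17 is a type I keratin that epithelia switch on after wounding and under stress, and it is also present in basal cells of glands. Fibronectin, the product of Fn1, is a secreted glycoprotein that links integrins to the matrix around the cell. It is made in large amounts by fibroblasts, and carcinoma cells that lose part of their epithelial character can make it too. The 2 other markers given for these cells are Cldn4, which encodes a tight junction protein of epithelial cells, and S100a6, which encodes a small calcium-binding protein.

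The 3 sections held 663145, 513963 and 786165 cells with 71492483, 60759690 and 78051090 panel transcripts in tumours 1, 2 and 3, on 258 genes. A kept cell had a median of 98, 106 and 94 transcripts. Tumour 3 stood apart in the number of members: it held 93.6% of them, against 5.60% in tumour 1 and 0.830% in tumour 2. Each comparison therefore summed counts within a tumour, kept the tumour as a block, and was repeated without each tumour. The p-values cover the spread between these 3 tumours and nothing wider, and in some comparisons, named with the processing, that spread was pooled across genes.

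Members made up 2.61% of kept cells in tumour 3 (17591 of 673638, exact 95% interval 2.57 to 2.65%). In tumour 1 they made up 0.170% (1052 of 619770, 0.160 to 0.180%), and in tumour 2 0.0344% (156 of 453995, 0.0292 to 0.0402%). The order of the counted shares in these sections is tumour 3, then tumour 1, then tumour 2. The intervals cover counting error only and take cells as independent, which members lying in patches are not, so they are too narrow. A stricter minimum of 5 transcripts of each gene left 0.0716%, 0.0145% and 1.36% in tumours 1, 2 and 3, a much smaller share in each with the same order. Before the limits on other genes, 1404, 225 and 17872 kept cells held at least 3 transcripts of both genes. The Col1a1 limit alone removed 243, 59 and 247 of these and the basal keratin limit alone removed 82, 7 and 25, so the Col1a1 limit removed relatively more of these cells in tumours 1 and 2 than in tumour 3.

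A member held a median of 5, 6 and 5 Krt17 transcripts and of 8, 6 and 10 Fn1 transcripts in tumours 1, 2 and 3. The highest counts in 1 cell were 57, 110 and 111 for Krt17 and 84, 60 and 167 for Fn1. The 2 genes together gave a median of 8.68%, 7.003% and 9.62% of a member's transcripts. Many members sat at the edge of the rule: 313, 34 and 4209 had exactly 3 Krt17 transcripts. These values were fixed by the selection and are a description.

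Cells just inside and just outside the minimums were set side by side. Members with exactly 3 Krt17 transcripts had 39.8, 31.0 and 42.4 Cldn4 transcripts per 1000 panel transcripts in tumours 1, 2 and 3, against 36.2, 27.1 and 37.9 in the 675, 55 and 6806 cells with 2 that met the rest of the rule. Tnc stood at 23.3, 36.7 and 9.22 per 1000 just inside, against 15.7, 32.5 and 8.03 just outside. At the Fn1 minimum, Cldn4 stood at 33.4, 34.6 and 44.0 per 1000 with 3 Fn1 transcripts, against 28.7, 30.6 and 42.1 with 2. S100a6 stood at 11.3, 6.45 and 8.77 per 1000 just inside the Krt17 minimum, against 8.79, 8.15 and 7.96 just outside, and Gata3 at 15.5, 24.9 and 14.7, against 18.2, 24.8 and 17.1. Cldn4 and Tnc were higher just inside in each tumour, while S100a6 was lower inside and Gata3 slightly higher inside in tumour 2 alone.

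The 2 genes met in the same cell more often than their separate frequencies give. Among cells within the keratin and Col1a1 limits, grouped by total transcripts in steps of 0.25 on the log2 scale, members were 5.73, 4.37 and 2.98 times as many as independence would give in tumours 1, 2 and 3. The excess was present in each tumour and smallest in tumour 3, where both genes were most frequent. Members were 33.2%, 7.60% and 66.1% of the cells with at least 3 Krt17 transcripts, and 5.84%, 3.53% and 29.9% of those with at least 3 Fn1 transcripts. These ratios describe the rule genes and carry no test.

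The label of tumour cell was checked against marker genes. The 7 epithelial markers on the panel summed to 83.5, 78.7 and 71.0 per 1000 panel transcripts in members of tumours 1, 2 and 3, against 84.7, 78.4 and 69.2 in the comparison cells, which are kept cells with at least 1 Cdh1 transcript and none of Krt17 or Fn1. Cells with Col1a1 at or above the limit had only 29.2, 25.8 and 26.4. This list holds the keratins and Cdh1 of the rule and the marker Cldn4. Its sum hides opposite differences, since Cldn4 was higher and Gata3 lower in members, so it does not settle the label. Cdh1, the gene of E-cadherin, stood at 6.25, 4.32 and 4.015 per 1000 in members, against 7.40, 5.37 and 4.08 in all kept cells and 2.60, 1.95 and 1.38 in Col1a1-high cells. Per transcript, members were thus below the average kept cell in Cdh1, most clearly in tumours 1 and 2, and above Col1a1-high cells. At least 1 Cdh1 transcript was found in 61.6%, 59.0% and 51.1% of members, against 47.6%, 41.7% and 31.8% of all kept cells, shares that also follow the members' greater depth (a median of 181, 253 and 214 transcripts, against 98, 106 and 94). Tumour cell is used below as the name of the rule.

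Markers of other cell types were compared in the same way. The 8 fibroblast markers summed to 29.3, 36.6 and 8.13 per 1000 in members, against 23.3, 20.02 and 16.99 in the comparison cells and 332, 382 and 372 in Col1a1-high cells. Members were above the comparison cells in tumours 1 and 2 and below them in tumour 3. This list holds Col1a1, at 16.7, 20.5 and 5.43 per 1000 in members. The rule limits Col1a1 in members and not in the comparison cells, so the difference between the sums is partly set by the selection. Pdgfra, a defining fibroblast receptor, was at 0.343, 0.581 and 0.221 per 1000 in members, against 0.627, 0.626 and 0.441 in comparison cells. In members it lay below the highest blank code, a barcode with no probe, in each tumour (0.639, 0.627 and 0.384). Of the 7 fibroblast markers tested in the first comparison below, 1, Postn, was higher and none lower, so Pdgfra was not called. The 2 endothelial markers summed to 0.682, 0.744 and 0.455 per 1000, against 1.06, 0.870 and 0.670. The 7 macrophage markers summed to 4.73, 5.39 and 5.43 per 1000, against 5.79, 7.41 and 6.28. Both sums were lower in members of each tumour. In the first comparison below, however, 2 of the 7 macrophage markers, Ccl8 and Cd163, were called higher and none lower. Neither lay above the highest blank code in all 3 tumours. Cd14 was the largest part of the macrophage sum in members, at 2.39, 2.65 and 3.997 per 1000. The endothelial genes Pecam1 and Cdh5 were each below that code in members of every tumour, and neither was called. The 9 T or NK cell markers summed to 1.56, 1.998 and 1.32 per 1000, against 1.505, 1.36 and 1.42, and the 3 neutrophil markers to 0.959, 1.79 and 0.791, against 0.903, 1.01 and 0.824, both higher in members of tumours 1 and 2. None of these lists was at 0 in members.

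Members were larger and held more transcripts than the comparison cells. Their median volume was 717, 957 and 795 µm3 in tumours 1, 2 and 3, against 582, 733 and 655 µm3. Outside the genes of the rule they held a median of 158, 233 and 189 transcripts, against 107, 135 and 110. A rule that asks for 6 transcripts selects deep cells, so this difference is a description.

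The first comparison asks which other genes mark members out from Cdh1 cells without Krt17 and Fn1, which numbered 198650, 144645 and 109877. Members had more transcripts of wound and matrix genes, of progenitor-linked transcription factors and of Wnt7b. They had fewer transcripts of Gata3, of TGF-beta pathway genes Tgfb3, Tgfbr3 and Id2, of serum amyloid and of Mki67. Of 251 genes tested, 53 were higher (21.1%) and 40 lower (15.9%) in members by edgeR's quasi-likelihood test at an adjusted p under 0.05, which is 37.1% in either direction, with 121 at an unadjusted p under 0.05. The median log2 fold change over all genes tested was −0.02, and the counts include Cldn4, S100a6 and Fosb, which were known for these cells before. The counts of the lists and comparisons below also include these genes where called, and they are not read as tested. Blank codes, barcodes with no probe that show how often decoding errs, were higher in members for 7 of 27 with a median log2 fold change of 0.31, so genes at blank level are given apart: 24 of the higher and 35 of the lower genes lay above the highest blank code in all 3 tumours. A higher gene said to be at blank level did not exceed that code in all 3 tumours, though it may in some.

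The matrix, integrin and wound list had 10 of 18 genes higher and none lower, with a median log2 fold change of 0.71. Tnc, the gene of tenascin C, a matrix glycoprotein of wounds and tumour fronts, had 25.3, 50.4 and 11.8 transcripts per 1000 in members of tumours 1, 2 and 3, against 2.07, 2.13 and 1.25 in comparison cells. The groups did not overlap, and tumour 2 was highest although it had the fewest members. The log2 fold change was 3.89 ± 0.32 (SE, edgeR adjusted p = 4.93e-27).

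Other genes of this list were less uniform. Thbs1, the gene of thrombospondin 1, stood at 47.8, 25.6 and 139 per 1000 in members, against 37.5, 19.7 and 52.0 in comparison cells. It was higher in members of each tumour while the ranges of the groups overlapped, with a log2 fold change of 0.80 ± 0.27 (edgeR adjusted p = 0.012). Flna, the gene of the actin crosslinker filamin A, stood at 36.8, 33.8 and 37.6 per 1000, against 24.7, 19.3 and 22.5 (0.80 ± 0.28 log2, edgeR adjusted p = 0.0156). Anxa1, the gene of annexin A1, stood at 4.51, 3.72 and 3.32 per 1000, against 2.42, 2.08 and 1.37 (1.09 ± 0.33 log2, edgeR adjusted p = 0.00479). Postn, the gene of periostin and itself a fibroblast marker, went opposite ways: 10.2, 13.7 and 1.41 per 1000 in members, against 3.68, 2.92 and 2.76, so it was lower in members of tumour 3. Timp1, Mmp13 and Lama3 were also past the test, but did not lie above the highest blank code in all 3 tumours. Lama3, at 1.06, 1.70 and 0.241 per 1000 in members, was below that code (0.639, 0.627 and 0.384) in tumour 3 alone. The fibroblast marker sum, which includes Postn, had the same pattern across tumours. Among cells with no transcript of a stromal or immune marker, 23 of 223 genes were higher, Tnc among them. Calls were lost without tumour 1 for Thbs1 (0.99 log2), Flna (0.86), Anxa1 (1.15), Mmp13 (1.0), Postn (0.71), Timp1 (0.47) and Lama3 (0.93). They were lost without tumour 2 for Postn (0.47), Timp1 (0.70) and Lama3 (0.88), and without tumour 3 for Thbs1 (0.31) and Anxa1 (0.81).

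Actn1, the gene of alpha-actinin 1, an actin crosslinker at adhesions, had 31.5, 50.6 and 54.1 transcripts per 1000 in members, against 12.3, 14.1 and 18.7. The groups did not overlap, and the log2 fold change was 1.67 ± 0.28 (edgeR adjusted p = 1.38e-07). Cldn4 stood at 49.8, 39.3 and 50.1 per 1000 in members, against 19.3, 8.71 and 20.4, a log2 difference of 1.70. S100a6 stood at 13.6, 9.25 and 9.67 per 1000, against 3.37, 3.45 and 2.88, a log2 difference of 1.82. Both were named as markers of these cells from the same tumours, so they are described here without a test. Cldn4 varied little between members of the 3 tumours, with a coefficient of variation of 13.3%, against 67.3% for Tnc and 84.8% for Thbs1.

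Epithelial genes divided. Of 4 identity and junction genes, Cldn4 and Krt7 were higher and Grhl2 and Gata3 lower, Cldn4 not being read as tested. Krt7, a keratin of simple epithelia, stood at 2.65, 3.60 and 2.70 per 1000 in members, against 1.09, 0.932 and 1.22 (1.55 ± 0.34 log2, edgeR adjusted p = 5.64e-05). Gata3, the transcription factor that maintains luminal mammary cells, stood at 13.1, 16.3 and 10.97 per 1000 in members, against 42.4, 55.3 and 31.9. Members were lower in each tumour without overlap, and the log2 fold change was −1.57 ± 0.28 (edgeR adjusted p = 5.81e-07). Per 1000 panel transcripts they were close to Col1a1-high cells (12.6, 16.6 and 11.1). The rule genes took a larger part there: Col1a1-high cells held a median of 120, 94 and 91 transcripts, and 81, 59 and 55 outside these genes. Levels per 1000, here and above, are thus lowered more in Col1a1-high cells than in members. Grhl2, a transcription factor of epithelial junction genes, was also lower (−0.88 log2, edgeR adjusted p = 0.0169), a call lost without tumour 1 (−0.99 log2) and without tumour 2 (−0.59 log2).

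Basal genes were called about as often as all genes tested, and few transcription factors of epithelial-mesenchymal transition passed the test. Over all genes tested, 21.1% were higher and 15.9% lower. Of 5 basal or myoepithelial genes, 1, Acta2, was higher and 1, Mylk, lower. Acta2 lay below the highest blank code in members of tumour 3 alone (0.308, against 0.384 per 1000). Neither call held without tumour 1 (1.06 and −1.04 log2), Acta2 was also lost without tumour 2 (0.59) and Mylk without tumour 3 (−0.52). Trp63, the basal lineage factor p63, had a log2 fold change of −0.74 that missed the threshold (edgeR adjusted p = 0.052). Among the keratins limited by the rule, Krt14 stood at 4.97, 7.67 and 2.30 per 1000 in members, against 1.60, 0.918 and 0.957, and Krt5 at 6.17, 7.11 and 0.689, against 5.84, 2.13 and 3.20. Krt14 was higher in members of each tumour, and Krt5 was lower in members of tumour 3 and higher in those of tumours 1 and 2. Of 8 transition factors, 1, Prrx1, was past the test, at blank level, and the list's median log2 fold change was 0.12. Twist1 (0.48, edgeR adjusted p = 0.097) and Zeb1 (0.25, edgeR adjusted p = 0.454) missed the threshold.

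The progenitor list had 4 of 6 genes higher and none lower, with a median log2 fold change of 1.22. Among all genes tested 21.1% were higher and 15.9% lower. Sox11, an embryonic transcription factor, had 1.32, 1.09 and 1.65 transcripts per 1000 in members, against 0.241, 0.145 and 0.201 in comparison cells. Every member value lay above every comparison value, comparison cells being below the highest blank code in each tumour (0.380, 0.351 and 0.360), and the log2 fold change was 2.89 ± 0.33 (edgeR adjusted p = 4.24e-15). Aldh1a3, an enzyme of retinoic acid synthesis used to mark mammary progenitors, stood at 0.706, 1.84 and 2.60 per 1000, against 0.311, 0.390 and 0.545 (1.99 ± 0.34 log2, edgeR adjusted p = 1.46e-07). In tumour 1 the comparison cells lay below their highest blank code (0.380), and members were little above theirs (0.639). Klf4, a transcription factor of epithelial differentiation and reprogramming, stood at 3.31, 2.97 and 1.99 per 1000, against 0.817, 0.626 and 1.13 (1.78 ± 0.35 log2, edgeR adjusted p = 4.49e-06). Lgr5, a stem cell receptor of Wnt signalling, was past the test at blank level, and its call was lost without any 1 tumour (0.35 to 0.77 log2). Sox9, another progenitor factor, was at 32.4, 35.5 and 30.7 per 1000 in members, against 52.2, 53.3 and 47.9, and missed the threshold (−0.55 log2, edgeR adjusted p = 0.0894).

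**Figure D1:**
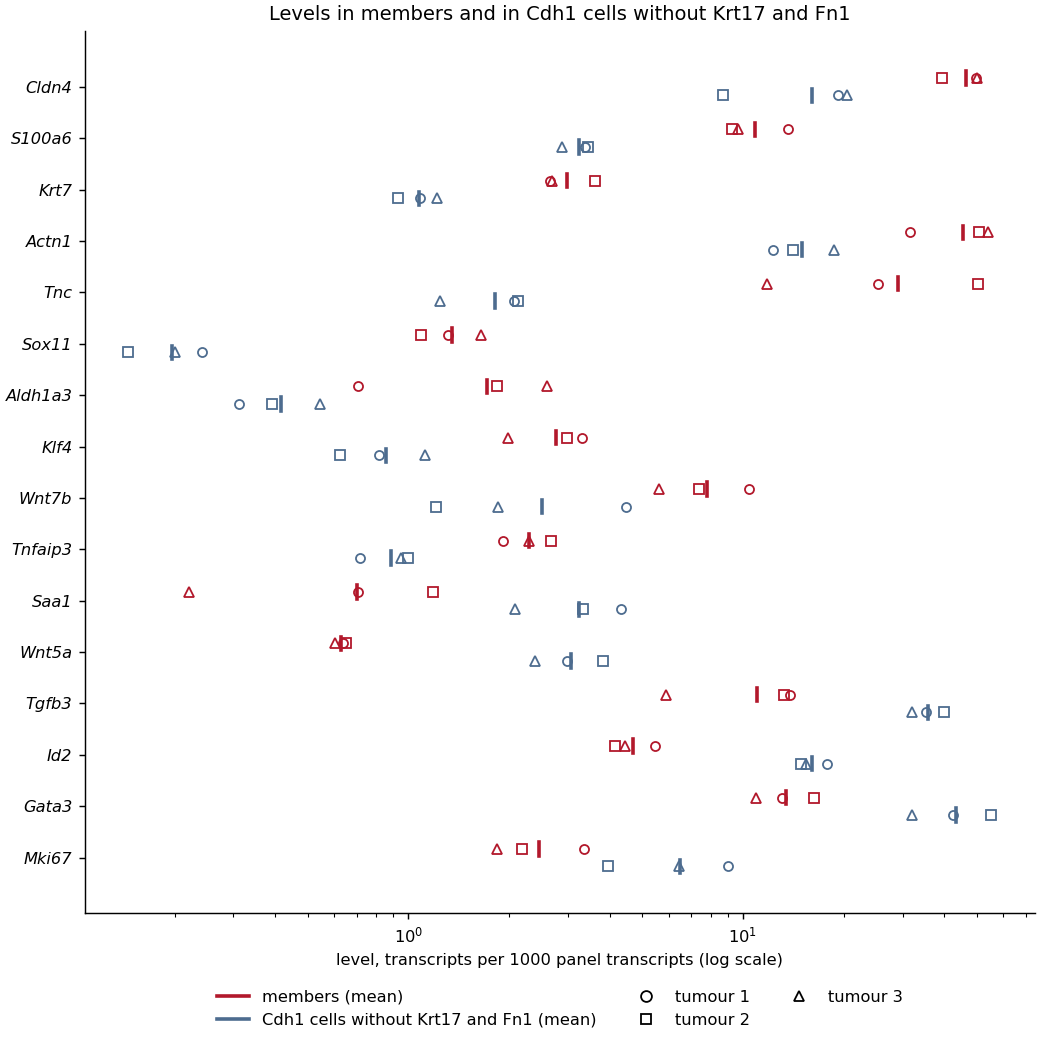
Level of 16 genes, as transcripts per 1000 panel transcripts on a log axis, in members and in Cdh1 cells without Krt17 and Fn1. Open symbols are tumours 1, 2 and 3 and short bars are means, and Tnc, at 11.8 to 50.4 in members, is farthest from its comparison cells at 1.25 to 2.13.

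Wnt and Notch genes went both ways. Of 22 Wnt genes, 4 were higher and 7 lower, with a median log2 fold change of −0.53. Over all genes tested, 21.1% were higher and 15.9% lower. Wnt7b, a ligand, stood at 10.4, 7.39 and 5.61 per 1000 in members, against 4.46, 1.21 and 1.85, with no overlap (1.90 ± 0.32 log2, edgeR adjusted p = 1.78e-07). Wnt5a, a ligand known mainly for signalling without beta-catenin, stood at 0.639, 0.651 and 0.603 per 1000 in members, against 2.99, 3.81 and 2.39 (−2.13 ± 0.36 log2, edgeR adjusted p = 1.31e-07). In members Wnt5a and Hey1 did not lie above the highest blank code in tumour 1, nor Dll4 in any tumour. Rnf43, a feedback inhibitor that removes Wnt receptors, and Tcf7l2, a nuclear partner of beta-catenin, were lower by 1.20 and 1.06 on the log2 scale (edgeR adjusted p = 0.00206 and 0.00227). Of 11 Notch genes, the ligand gene Jag1 was higher (3.64, 5.69 and 3.52 per 1000, against 2.88, 1.01 and 1.998, edgeR adjusted p = 0.000826). Notch1, Notch3, Dll4 and the target Hey1 were lower, Hey1 at 0.477, 0.790 and 0.640 per 1000, against 2.06, 3.56 and 1.23 (edgeR adjusted p = 4.77e-05). Calls were lost without tumour 1 for Rnf43 (−1.31 log2), Tcf7l2 (−1.06), Notch1 (−0.94) and Notch3 (−1.16), and without tumour 2 for Jag1 (0.80), Notch1 (−0.68), Notch3 (−0.50) and Dll4 (−0.52).

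TGF-beta genes were lower more often than higher, with 4 of 11 lower, 2 higher and a median log2 fold change of −0.23. The shares over all genes tested were 15.9% lower and 21.1% higher. Tgfb3, a ligand gene, stood at 13.8, 13.3 and 5.89 per 1000 in members, against 35.2, 39.9 and 32.0, with no overlap (−1.71 ± 0.29 log2, edgeR adjusted p = 1.46e-07). Id2, a target of this family whose product blocks basic helix-loop-helix factors, stood at 5.47, 4.14 and 4.45 per 1000, against 17.9, 14.9 and 15.5 (−1.69 ± 0.30 log2, edgeR adjusted p = 5.81e-07). Its relative Id1 went the other way, at 1.43, 1.09 and 1.62 per 1000, against 0.986, 0.567 and 0.916 (0.86 ± 0.33 log2, edgeR adjusted p = 0.0273). The co-receptor gene Tgfbr3 stood at 1.99, 1.95 and 1.69 per 1000, against 5.72, 4.36 and 5.89 (edgeR adjusted p = 0.000159). Of 4 Hippo genes, the transcription factor gene Tead1 was higher (0.81 log2, edgeR adjusted p = 0.0362) while Tead2, Tead3 and Wwc1, which encodes an upstream regulator, were lower, with edgeR adjusted p-values of 0.00718, 0.00751 and 0.0206. Without tumour 1 none of the 4 Hippo calls was left, at 1.07, −0.96, −1.14 and −0.88 log2 for Tead1, Tead2, Tead3 and Wwc1, and the call of Id1 was lost without any 1 tumour (0.67 to 0.98 log2). Without tumour 2 Tead2 (−0.81) and Wwc1 (−0.55) were lost, and without tumour 3 Tead1 (0.45). Tgfbr2 was lost without tumour 1 (−0.85) and without tumour 2 (−0.56).

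Immediate early and inflammatory genes went both ways, with more of them higher than lower. Of 9 immediate early genes, 4 were higher and 1, Zfp36, lower, with a median log2 fold change of 0.51. Among all genes tested 21.1% were higher and 15.9% lower, which also stands beside the inflammatory counts below. Atf3, a stress transcription factor, stood at 2.80, 2.35 and 5.94 per 1000 in members, against 1.54, 1.28 and 2.41, higher in each tumour with overlapping ranges (1.11 ± 0.33 log2, edgeR adjusted p = 0.0044). The call of Atf3 was lost without tumour 1 (1.19 log2) and without tumour 3 (0.82), and so was that of Zfp36 (−0.78 and −0.31). Fosb, given without a test because it was known for these cells from these data, stood at 1.39, 1.28 and 2.61 per 1000, against 0.972, 0.511 and 0.658. Egr1 stood at 11.7, 14.3 and 31.9 per 1000, against 10.2, 9.15 and 15.8 (edgeR adjusted p = 0.043), and the call was lost without any 1 of the 3 tumours, at 0.37 to 0.92 log2. Of 18 inflammatory genes, 6 were higher and 2 lower. Tnfaip3, a feedback inhibitor of NF-kB, stood at 1.92, 2.67 and 2.29 per 1000, against 0.717, 0.999 and 0.948 (1.46 ± 0.34 log2, edgeR adjusted p = 0.000156), while the higher chemokine genes and Il6 were at blank level.

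Other lower genes came from several lists. Saa1, a serum amyloid of the acute phase response, stood at 0.706, 1.19 and 0.221 per 1000 in members, against 4.31, 3.33 and 2.08 (−2.38 ± 0.36 log2, edgeR adjusted p = 4.99e-09). Arg1, the gene of arginase 1, stood at 1.76, 0.767 and 0.412 per 1000, against 5.05, 3.06 and 3.39 (−2.10 ± 0.35 log2, edgeR adjusted p = 1.38e-07). Both were lower in members of every tumour, Saa1 lying below the highest blank code (0.384 per 1000) in members of tumour 3. Wap, a milk protein gene, stood at 0.162, 0.163 and 0.116 per 1000, against 0.691, 0.680 and 0.411 (−1.82 ± 0.28 log2, edgeR adjusted p = 1.35e-08). In members Wap was below the highest blank code in each tumour (0.639, 0.627 and 0.384), so its fold rests on a level that cannot be told apart from false decoding. Of 11 interferon and antigen presentation genes, 2 were lower, a share close to the 15.9% of all genes tested, and 1 was higher. The lower ones were Irf7 (−0.92 log2, edgeR adjusted p = 0.012) and the class I gene H2-K1 (−1.15 log2, edgeR adjusted p = 0.00141), the call of Irf7 being lost without tumour 1 (−0.77 log2).

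The proliferation gene Mki67, which encodes the Ki-67 antigen of cycling cells, stood at 3.35, 2.18 and 1.84 per 1000 in members, against 9.04, 3.94 and 6.45. Members were lower without overlap, and the log2 fold change was −1.28 ± 0.32 (edgeR adjusted p = 0.000507). The call was lost without tumour 1, at −1.25 log2. Top2a (1.98, 1.51 and 1.07 per 1000, against 3.08, 1.77 and 2.21, edgeR adjusted p = 0.177) and Ccnd1 (−0.50 log2, edgeR adjusted p = 0.159) missed the threshold. Wif1 and Chad, a secreted Wnt inhibitor and a cartilage matrix protein, were lower over 3 tumours by 1.61 and 1.85 on the log2 scale, but in tumour 1 they stood at 2.02 and 3.25 per 1000 in members, against 2.22 and 3.52.

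Of the 24 genes with the largest changes, 12 in each direction, 22 kept their call in all 16 alternatives tried (Cldn4, S100a6 and Fosb are counted here but not read as tested), and the exceptions were Wif1 and Chad, lost without tumour 3 at −0.47 and −0.94 log2. Comparison cells drawn to the members' depth and volume gave 47 higher and 31 lower genes of 250, and comparison cells within 100 µm of a member gave 52 and 33. In the comparisons below the same tally was lower: 0 of 8 genes against Krt17-only cells, 1 of 12 against Fn1-only cells, 0 of 6 near members and 0 of 12 beside members kept the call in every alternative. The counts were smaller without tumour 1, at 27 higher and 22 lower, and without tumour 2, at 35 and 26, and were 47 and 38 without tumour 3.

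The next comparisons ask the same minimum of 1 of the 2 genes of both groups. Members with Cdh1, 648, 92 and 8990 cells, were set against Krt17-only cells, 773, 785 and 1752 cells with at least 3 Krt17 transcripts, no Fn1, at least 1 Cdh1 transcript and the same limits. They were also set against Fn1-only cells, 7318, 1815 and 9405 cells chosen likewise. The levels of the shared gene differed: Krt17 stood at 30.5, 35.1 and 29.4 per 1000 in members with Cdh1, against 28.2, 58.9 and 30.6 in Krt17-only cells, and Fn1 at 54.6, 29.3 and 58.1, against 29.7, 19.1 and 23.9 in Fn1-only cells. Both comparisons and the first share the member sums, so their values stand side by side and are not independent.

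Against Krt17-only cells few genes were called: 5 of 248 were higher (2.02%) and 5 lower (2.02%), or 4.03% in either direction. At an unadjusted p under 0.05 by edgeR there were 45, and the median log2 fold change was −0.03. Tnc had 22.2, 50.2 and 10.5 transcripts per 1000 in co-positive cells, against 6.60, 15.005 and 3.27 in Krt17-only cells. Tumour 2 was highest in both groups and each tumour's co-positive cells lay above its own Krt17-only cells, with a log2 fold change of 1.85 ± 0.15 (edgeR adjusted p = 0.000296). Sox11 stood at 1.12, 0.916 and 1.51 per 1000, against 0.426, 0.364 and 0.460 (1.63 ± 0.25 log2, edgeR adjusted p = 0.0197), Krt17-only cells of tumour 2 being below the highest blank code (0.540). Wnt7b stood at 10.5, 7.90 and 5.86 per 1000, against 4.95, 3.71 and 3.59 (1.09 ± 0.17 log2, edgeR adjusted p = 0.0197), and both genes were without overlap between groups. The 2 further genes that were higher, Ccn3 and Cdh11, lay at blank level.

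Genes lower in co-positive than in Krt17-only cells included Trp63, Cdkn1c, Saa1 and Bglap3. Trp63 stood at 0.633, 1.36 and 0.307 per 1000, against 2.57, 2.03 and 1.43 (−1.53 ± 0.34 log2, edgeR adjusted p = 0.0461). Cdkn1c, which encodes the cell cycle inhibitor p57, stood at 1.37, 0.848 and 0.317 per 1000, against 4.36, 1.53 and 2.25 (−1.72 ± 0.36 log2, edgeR adjusted p = 0.0431). Neither gene overlapped between the groups, and in co-positive cells of tumour 3 all 4 genes were below the highest blank code (0.409).

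Cldn4, by contrast, was higher in co-positive cells of tumour 1 alone: it stood at 50.8, 40.2 and 52.4 per 1000 in co-positive cells, against 33.2, 42.5 and 53.2. S100a6 stood at 14.0, 10.2 and 10.1 per 1000, against 7.65, 9.31 and 9.31. Gata3 stood at 13.9, 17.8 and 11.7 per 1000, against 28.1, 22.5 and 20.5, and missed the threshold (−0.60 log2, edgeR adjusted p = 0.109). Klf4 stood at 3.16, 3.05 and 1.75 per 1000, against 1.61, 5.41 and 3.42, with no common direction. No call of edgeR in this comparison was left without tumour 1, where 30 genes had an unadjusted p under 0.05. Scaling by library size alone in place of TMM left 1 higher and 0 lower, and DESeq2 called 4 and 9. By edgeR 3 higher and 3 lower genes were left without tumour 2 and 4 and 1 without tumour 3.

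Against Fn1-only cells many genes were called: 50 of 251 were higher (19.9%) and 32 lower (12.7%), or 32.7% in either direction, with a median log2 fold change of 0.07. At an unadjusted p under 0.05 by edgeR there were 104, against 45 for Krt17-only cells. The spread was pooled across genes here and not against Krt17-only cells, so the numbers of calls do not rank the 2 comparisons. Among the blank codes 6 of 27 were higher and 1 lower. Scaled by library size alone the split turned to 26 higher and 42 lower, with a median of −0.11. Tnc was again higher in co-positive cells, with 4.99, 4.01 and 3.43 per 1000 in Fn1-only cells (2.68 ± 0.24 log2, edgeR adjusted p = 2.1e-23). Sox11 stood at 0.477, 0.220 and 0.488 per 1000 in Fn1-only cells (1.83 ± 0.26 log2, edgeR adjusted p = 8.69e-10). In both genes every tumour's co-positive cells lay above all Fn1-only values. Aldh1a3 stood at 0.696, 2.10 and 2.88 per 1000 in co-positive cells, against 0.306, 0.380 and 1.28 in Fn1-only cells (1.79 ± 0.27 log2, edgeR adjusted p = 4.68e-09). Fn1-only cells lay below the highest blank code in tumours 1 and 2 for Aldh1a3 (0.462 and 0.393) and in tumour 2 for Sox11. Krt7 stood at 2.56, 3.77 and 2.67 per 1000, against 1.14, 0.885 and 1.31 (1.63 ± 0.27 log2, edgeR adjusted p = 5.48e-08), and Cldn4 stood at 20.6, 11.8 and 25.1 per 1000 in Fn1-only cells.

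The immediate early list had 6 of 9 genes higher than in Fn1-only cells and none lower (Fosb, Atf3, Junb, Klf4, Egr1 and Dusp1), with a median log2 fold change of 0.78. Junb, Egr1 and Dusp1 missed the threshold when scaled by library size alone (0.39, 0.63 and 0.63 log2), Junb and Egr1 did so without tumour 1 or tumour 2 as well, and Fosb and Atf3 without tumour 2 (1.03 and 1.17 log2). Without tumour 3 the calls of Atf3 (0.97), Junb (0.57) and Dusp1 (0.68) were lost. The matrix and wound list had 10 of 18 higher and 1, Sparc, lower. Of 3 proliferation genes Mki67 and Top2a were lower, Mki67 at 3.77, 2.48 and 2.05 per 1000, against 10.1, 6.67 and 6.88 (−1.31 ± 0.25 log2, edgeR adjusted p = 3.49e-06). Sparc and Top2a lost their calls without tumour 2 (−0.76 log2 each) and without tumour 3 (−0.29 and −0.68 log2), and Dusp1 without tumour 1 (0.70). Arg1 was at 1.93, 0.509 and 0.428 per 1000, against 4.32, 7.21 and 1.27 (−1.74 ± 0.28 log2, edgeR adjusted p = 2.73e-08).

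Markers of other cell types also differed here. Both endothelial genes were lower in co-positive than in Fn1-only cells, Pecam1 at 0.190, 0.509 and 0.154 per 1000, against 0.739, 1.39 and 0.365 (edgeR adjusted p = 1.26e-05). The pericyte gene Pdgfrb stood at 0.675, 0.611 and 0.274 per 1000, against 1.72, 3.15 and 0.764 (edgeR adjusted p = 2.95e-06). The 8 fibroblast markers summed to 26.4, 32.1 and 7.78 per 1000 in co-positive cells, against 36.6, 42.1 and 21.1, and the 7 macrophage markers to 4.54, 5.02 and 5.87, against 8.77, 6.70 and 8.48. In co-positive cells Pecam1 was below the highest blank code (0.583, 0.678 and 0.409) in each tumour and Pdgfrb in tumours 2 and 3. The part of these transcripts in the Fn1-only comparison was not tested. The calls of Pecam1 and Cdh5 were lost without tumour 2 (−1.27 and −0.91 log2). The counts were 31 higher and 24 lower without tumour 1, 13 and 8 without tumour 2, and 23 and 18 without tumour 3.

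**Figure D2:**
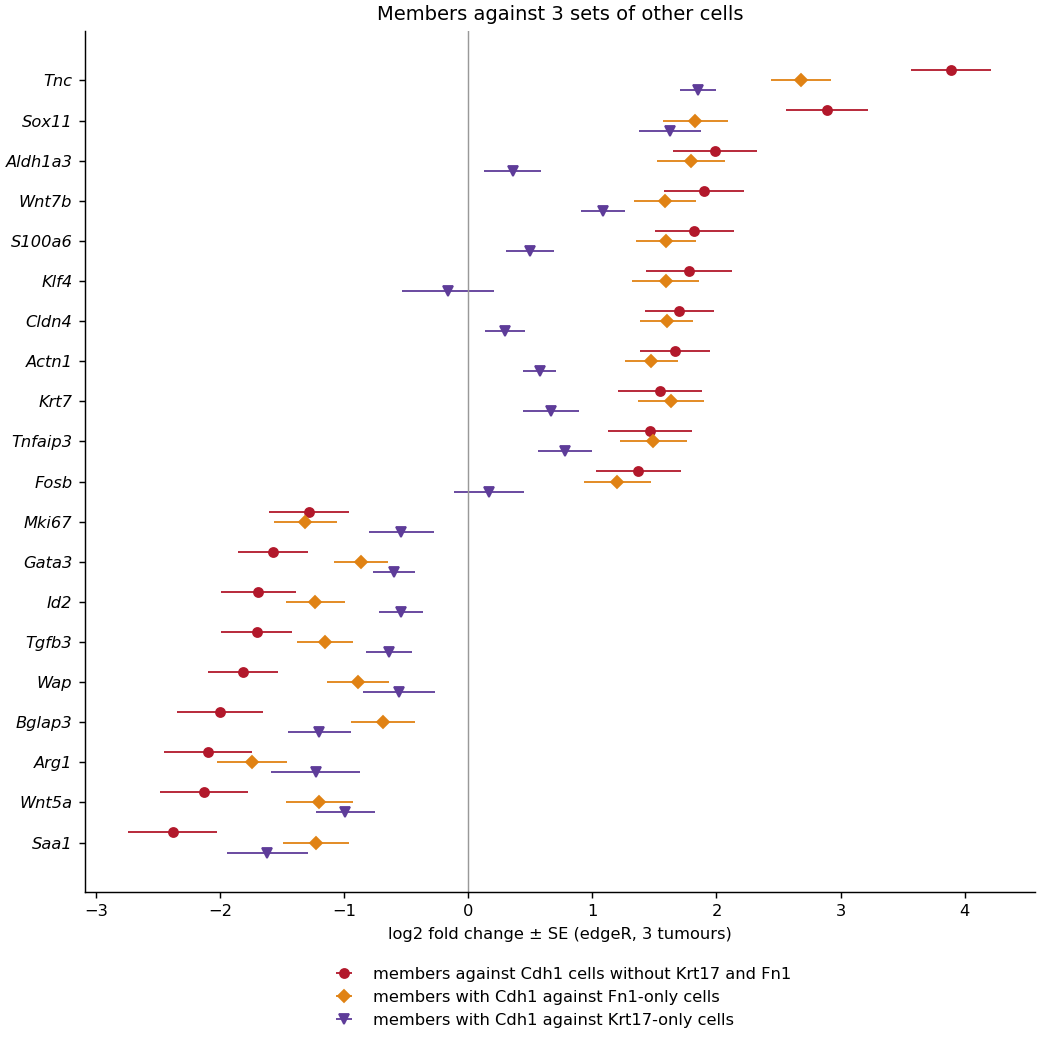
Log2 fold change ± SE from edgeR for 20 genes in members against Cdh1 cells without Krt17 and Fn1 and in members with Cdh1 against Fn1-only and against Krt17-only cells (3 tumours each). Tnc, at 3.89, 2.68 and 1.85, is right of 0 in all 3, while Cldn4 stands at 1.70, 1.60 and 0.30.

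Members differed among themselves in how much of their RNA came from the rule genes. They were grouped by the share of Krt17 and Fn1 in their transcripts, and levels were taken per 1000 transcripts outside the rule genes, as a description. Since the rule asks for at least 3 transcripts of each gene, a low share is possible only in a cell with many transcripts. The groups thus do not separate share from depth, and the part of depth in these levels was not tested. From under 5% to 15% or more, Actn1 increased at each step, to 48.1 against 28.5 at the low end of tumour 1, 85.3 against 42.8 in tumour 2 and 83.5 against 41.7 in tumour 3. Gata3 ran the opposite way: tumour 1 gave 20.5, 14.3, 11.6 and 9.97 and tumour 3 gave 17.1, 11.4, 9.75 and 8.49, while tumour 2 had 23.8 in its lowest group and 7.90 in its highest. Cldn4 went 39.6, 55.0, 66.9 and 84.2 in tumour 1, but levelled off in tumour 3 at 46.7, 58.9, 62.4 and 61.9. Mki67 was highest in the lowest group of each tumour, at 7.09, 4.19 and 3.59. The highest groups held 195, 24 and 4405 cells, so tumour 2 is the least certain.

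Between tumours, members were alike in some genes and not in others. Besides Thbs1 and Tnc, Ltbp2, which encodes a protein of elastic matrix, stood at 40.4, 42.6 and 7.68 per 1000 and Sparc, a matrix-binding protein, at 19.4, 17.6 and 4.05, both lowest in tumour 3. Flna, Ccnd1 and Sox9 varied little, with coefficients of variation of 5.58%, 7.04% and 7.41%. Krt17 varied by 8.26%, within the limits the rule sets.

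Members lay in patches. Tiles of 250 µm with at least 1 member were 262 of 906 in tumour 1, 97 of 1274 in tumour 2 and 537 of 1428 in tumour 3. The highest share in a tile was 7.72%, 3.68% and 52.1% of its kept cells. Tumour 3 held its members in dense fields and tumour 2 as scattered cells, with tumour 1 between them.

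**Figure D3:**
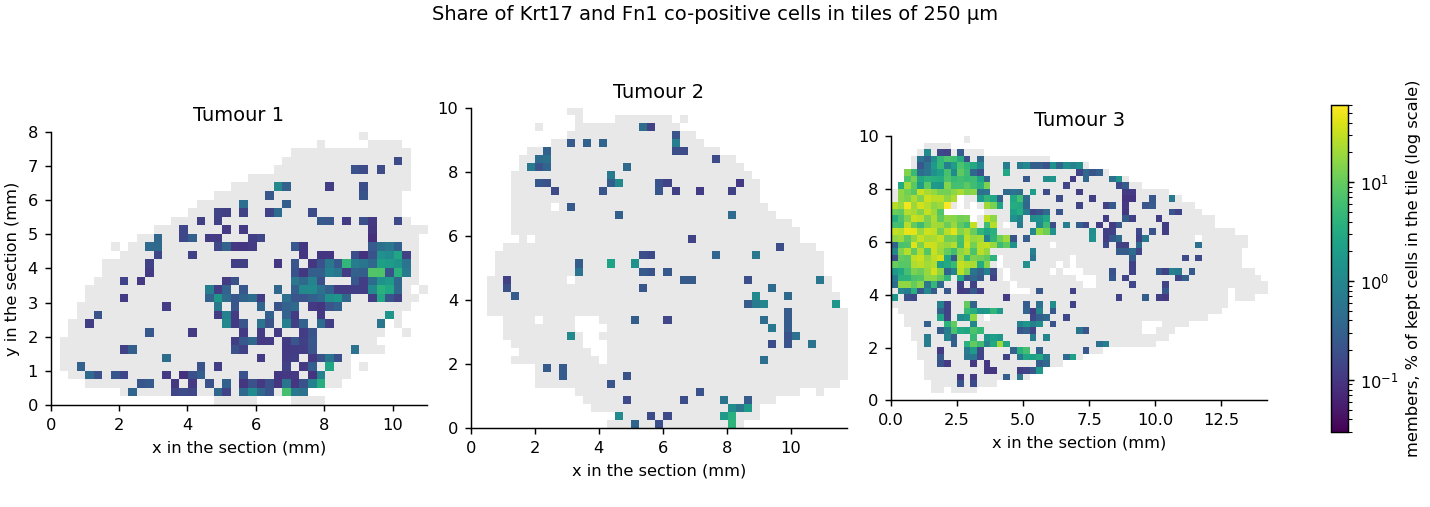
Sections of tumours 1, 2 and 3 in mm, with the share of members among the kept cells of each 250 µm tile on a log colour scale and grey tiles without a member. The highest tile of tumour 3 reaches 52.1%, against 7.72% in tumour 1 and 3.68% in tumour 2.

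Within 25 µm of another member lay 646, 43 and 16477 members, and 406, 113 and 1114 had none, which is 38.6%, 72.4% and 6.33% alone. Linking members within that distance gave 10, 0 and 176 clumps of at least 10 cells, which held 26.8%, 0% and 83.7% of members. The largest clump had 117, 7 and 1563 cells and measured 764 by 1056 µm in tumour 3. The median distance from a member to the nearest other member was 14.1, 78.7 and 9.06 µm.

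The share of members among surrounding cells was highest close to members in each tumour. Around members it was 8.74%, 2.93% and 40.5% at 10 to 25 µm and 0.733%, 0.110% and 13.6% at 200 to 400 µm. Around comparison cells it was 0.0738%, 0.0154% and 0.214% at 10 to 25 µm and 0.148%, 0.0298% and 1.02% at 200 to 400 µm. In tumour 2 the share around members no longer fell beyond 100 µm, and around comparison cells it was higher at 200 to 400 µm than at 10 to 25 µm in each tumour. The mean log2 ratio at 10 to 25 µm was 7.34 ± 0.39 (SD, n = 3), with the same direction in 3 of 3 tumours, and the exact two-sided sign-flip test gave p = 0.25, the smallest that 3 tumours allow. Comparison cells were chosen to hold neither gene. In each ring the share around them was below that of all kept cells (0.170%, 0.0344% and 2.61%), and around members it was above. The size of the ratio thus depends on the choice of comparison cells, and no conclusion is drawn from its test.

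**Figure D4:**
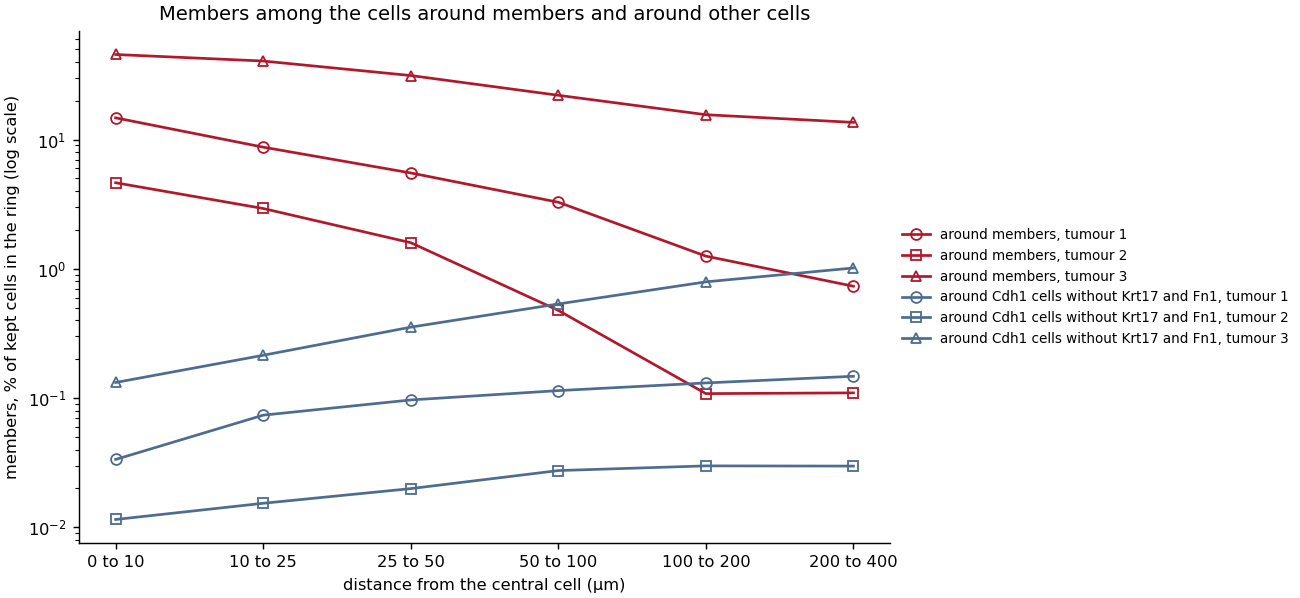
Members as a percentage of kept cells, on a log axis, in rings of growing distance (µm) around members and around Cdh1 cells without Krt17 and Fn1 in tumours 1, 2 and 3. At 10 to 25 µm the lines around members stand at 2.93 to 40.5% and those around comparison cells at 0.0154 to 0.214%.

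Distances to other cell types were compared next. The median distance to the nearest Col1a1-high cell was 21.2, 48.7 and 69.9 µm from members, against 23.3, 32.5 and 37.8 µm from comparison cells, shorter in tumour 1 and longer in tumours 2 and 3 (exact sign-flip p = 0.5, n = 3). The distance to cells with both endothelial genes Pecam1 and Cdh5 was 54.8, 68.1 and 97.0 µm, against 42.4, 60.6 and 80.9 µm. It was longer from members in 3 of 3 tumours, with a mean log2 ratio of 0.27 ± 0.10 (SD, exact sign-flip p = 0.25, n = 3). The share with such a cell within 25 µm, however, was 14.1%, 13.5% and 2.35% of members, against 20.8%, 12.1% and 6.19%, higher for members in tumour 2 (exact sign-flip p = 0.5, n = 3). Cells with both macrophage genes Adgre1 and Cx3cr1 lay within 25 µm of 12.5%, 8.33% and 1.01% of members, against 19.3%, 9.16% and 1.79%, lower for members in 3 of 3 tumours (exact sign-flip p = 0.25, n = 3). Members had a median of 29, 14 and 19 kept cells within 25 µm, against 29, 17 and 24. By distance from the section outline the share had no common order: in tumour 3 it was 2.09% within 150 µm and 2.79% beyond 1000 µm, and in tumour 1 0.188% and 0.141%. That outline also takes the end of the image as an edge.

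Cells around members were measured apart from the members. Kept cells that were not members and lay within 25 µm of one, 17105, 1944 and 60304 cells, were set against 520884, 439685 and 495699 cells with no member within 75 µm. Near cells had more transcripts of Tnc, S100a6, Wnt7b, Cldn4, Actn1 and Sox11 and fewer of Bglap3 and Wap. Sox11 in far cells and Wap in near cells lay below the highest blank code in each tumour. These were all the calls: 6 of 256 genes higher (2.34%) and 2 lower (0.781%) by edgeR, or 3.12% in either direction, with 50 at an unadjusted p under 0.05 and no blank code called.

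Tnc had 8.17, 11.4 and 5.88 transcripts per 1000 in near cells of tumours 1, 2 and 3, against 2.87, 3.57 and 2.19 in far cells. Every near value lay above every far value, and the log2 fold change was 1.58 ± 0.18 (edgeR adjusted p = 0.0057). S100a6 stood at 6.86, 7.23 and 7.24 per 1000, against 3.21, 3.31 and 2.51, again without overlap (1.30 ± 0.21 log2). Cldn4 stood at 26.2, 20.1 and 34.2 per 1000, against 15.6, 7.54 and 17.03 (1.10 ± 0.19 log2). Both are markers named from these tumours and are given without a test. Wnt7b stood at 7.76, 2.98 and 3.67 per 1000, against 3.78, 1.16 and 1.64, higher near members in each tumour with overlapping ranges (1.23 ± 0.19 log2, edgeR adjusted p = 0.0149). Actn1 stood at 17.5, 29.3 and 34.0 per 1000, against 11.6, 13.2 and 17.5 (edgeR adjusted p = 0.0289). Bglap3, named for an osteocalcin-related gene of bone, stood at 1.02, 3.31 and 0.666 per 1000, against 2.23, 5.71 and 2.13 (−1.15 ± 0.21 log2, edgeR adjusted p = 0.0228).

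With growing distance, non-members approached the level of the far cells. Cldn4 was at 35.1, 31.5 and 42.2 per 1000 within 10 µm of a member and at 14.8, 7.23 and 16.3 beyond 200 µm. Tnc was at 12.3, 17.8 and 7.37 within 10 µm and at 2.15, 3.52 and 2.0 beyond 200 µm. Gata3 went the other way, at 17.8, 25.7 and 15.8 within 10 µm and 40.6, 50.2 and 29.4 beyond 200 µm, and its near and far sums missed the threshold (−0.60 log2, edgeR adjusted p = 0.097).

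**Figure D5:**
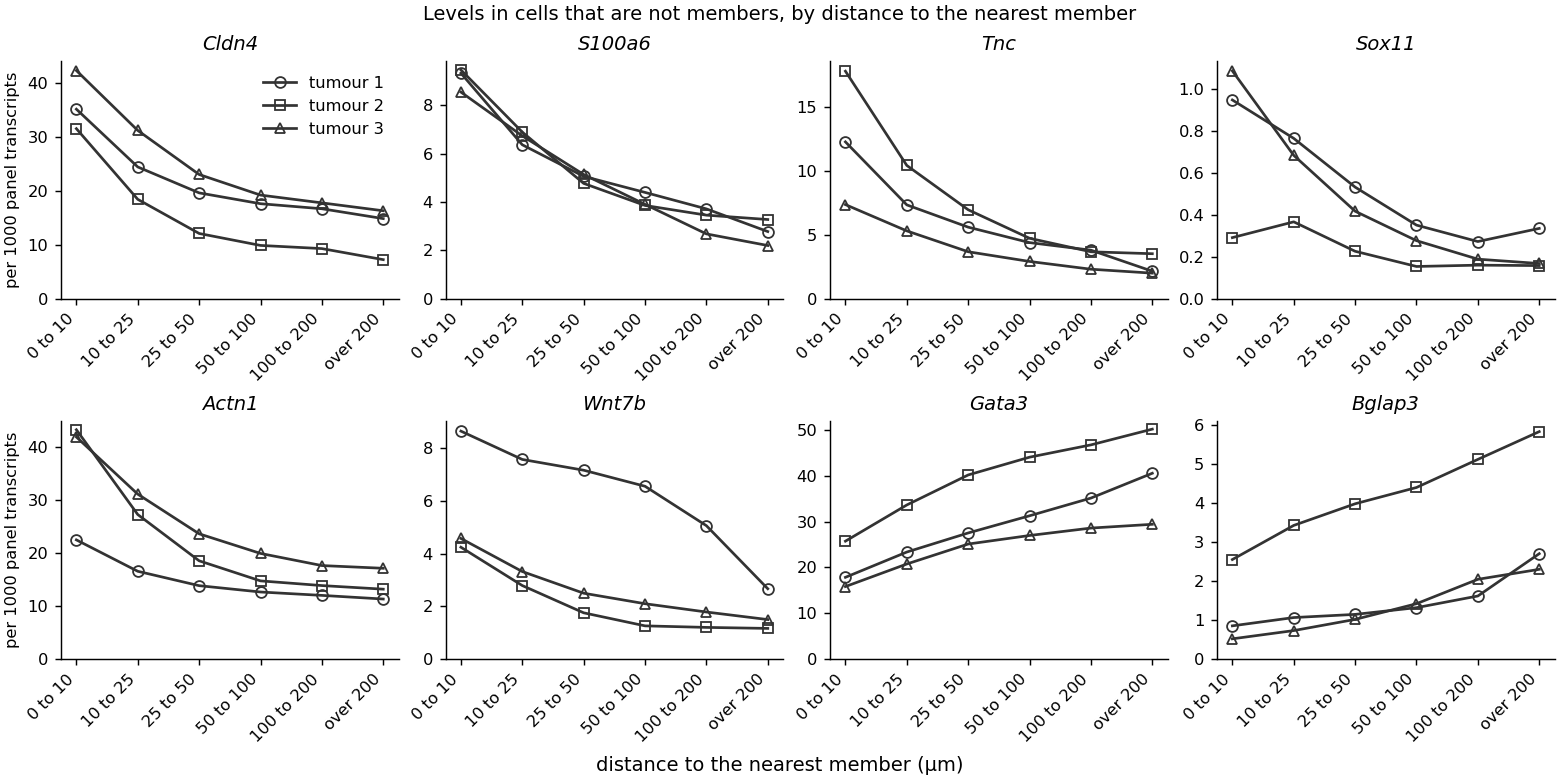
Levels of 8 genes per 1000 panel transcripts in kept cells that are not members, by distance to the nearest member (µm), with 1 line per tumour. Tnc is at 7.37 to 17.8 within 10 µm and at 2.0 to 3.52 beyond 200 µm, and Gata3 runs the other way.

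Krt17 and Fn1 themselves were at 6.49, 14.6 and 9.22 and at 31.2, 10.3 and 33.7 per 1000 in non-members within 10 µm, against 0.670, 0.755 and 1.05 and 4.73, 2.86 and 4.29 beyond 200 µm, although leaving out members caps both genes. The part of transcripts assigned across the borders of adjoining cells in these differences was not tested. Near cells held a median of 100, 126 and 128 transcripts, against 97, 106 and 85 in far cells, and their fibroblast markers summed to 58.8, 71.9 and 24.7 per 1000, against 57.2, 58.6 and 48.1. Without tumour 2 no gene was called by edgeR, with 19 at an unadjusted p under 0.05, while 15 higher and 14 lower genes were called without tumour 1 and 17 and 18 without tumour 3. DESeq2 called 28 higher and 21 lower.

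Members beside other members differed from members alone. This comparison was added after the data were seen and set the 646, 43 and 16477 members with another member within 25 µm against the 406, 113 and 1114 with none. The markers Krt17, Fn1, Cldn4 and S100a6 summed to 181, 170 and 160 per 1000 beside others, against 118, 106 and 109 apart. Actn1, Cldn4 and Mki67 also differed with the share of Krt17 and Fn1 among members, as given above. The part of that share in this comparison was not tested. Of 243 genes, 10 were higher (4.12%) and 6 lower (2.47%) by edgeR, or 6.58% in either direction, with 63 at an unadjusted p under 0.05 and a median log2 fold change of 0.08. Cldn4 stood at 59.3, 65.1 and 50.8 per 1000 in members beside others, against 36.9, 31.1 and 38.9 in members apart. The groups did not overlap, and the log2 fold change was 0.92 ± 0.13, given without a test because Cldn4 was named as a marker from these tumours. Krt7 stood at 3.17, 6.10 and 2.74 per 1000, against 1.94, 2.81 and 2.05, higher in each tumour with overlapping ranges (0.92 ± 0.17 log2, edgeR adjusted p = 0.0265).

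Thbs1 stood at 53.5, 40.9 and 142 per 1000 in members beside others, against 40.1, 20.8 and 85.7 (0.92 ± 0.13 log2, edgeR adjusted p = 0.00741). Actn1 stood at 35.1, 72.2 and 55.1 per 1000, against 26.7, 43.8 and 39.0 (0.75 ± 0.12 log2, edgeR adjusted p = 0.0107). Both were higher in each tumour although the ranges overlapped. S100a6, Anxa1, Tgif1, Egr1 and Atf3 were higher too, by 0.61 to 0.78 on the log2 scale, and Ccl4 was higher at blank level.

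Of 3 proliferation genes 2 were lower in members beside others, and of 5 basal genes 1. Mki67 stood at 1.93, 0.484 and 1.73 per 1000, against 5.28, 2.72 and 3.50 in members apart, without overlap (−1.12 ± 0.24 log2, edgeR adjusted p = 0.0319). Ccnd1, the gene of cyclin D1, stood at 7.91, 5.90 and 9.85 per 1000, against 16.1, 13.5 and 15.6 (−0.72 ± 0.17 log2, edgeR adjusted p = 0.0398). Trp63 stood at 0.423, 0.581 and 0.270 per 1000, against 0.888, 1.41 and 0.660 (−0.96 ± 0.19 log2, edgeR adjusted p = 0.0265). All 3 genes were lower in 3 of 3 tumours, with Trp63 below the highest blank code in members beside others of each tumour (0.671, 0.871 and 0.391) and Mki67 in tumour 2. Postn stood at 7.72, 9.68 and 1.28 per 1000, against 13.6, 14.95 and 3.48 (−0.77 ± 0.17 log2, edgeR adjusted p = 0.0319), and Chad and Dkk3 were the other genes that were lower.

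The fibroblast markers summed to 21.2, 15.6 and 7.47 per 1000 in members beside others, against 40.2, 43.2 and 18.6 in members apart, so they moved with this comparison, and their part in it was not tested. With tumour 1 left out, edgeR called no gene, and 40 had an unadjusted p under 0.05. Scaled by library size alone the split was 4 higher and 23 lower, with a median of −0.15. Without tumour 2, which had 43 members beside others, 11 higher and 22 lower genes were called, and without tumour 3 4 and 6.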

How the data were processed

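The deposited matrices hold raw transcript counts for each cell and gene, without normalization, per the file headers, and the deposited cell tables give volume and centre, whose units are unstated and were taken as µm3 and µm. Probe design covered 265 genes per the labels' design text, and 258 gene columns and 27 blank codes were used. In every cell gene and blank counts summed to the deposited transcript count. Which software segmented and decoded the images is not given in these sources. Scanpy 1.9.3 is named without a role, per the submitters' processing notes. No cell ID was shared between tumours, and no doublet caller was run on these imaged outlines.

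Counts were summed per tumour and cell group, giving 6 sums per comparison, and tested with edgeR 4.0.16 (R 4.3.3; filterByExpr, TMM, quasi-likelihood F-test, tumour as a block because both groups come from the same section, Benjamini-Hochberg at 0.05 over all genes). Genes of the rule were left out of tests and library sizes in comparisons of members, and Krt17 and Fn1 in that of near cells. Printed levels are per 1000 panel transcripts of the sum. In the first comparison and in that against Fn1-only cells edgeR pooled the spread across genes. Their p-values therefore do not rest on each gene's own spread between tumours. Alternatives used limma 3.58.1 (voom, added after the data were seen), DESeq2 1.42.0, other scalings, filters and cell rules. Fits were tested on simulated data. Positions used Python 3.11.15, NumPy 2.4.6 and SciPy 1.17.1, with rings in tumour 3 from 4000 drawn members and in each tumour from 20000 drawn comparison cells.

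Members, markers and gene lists were chosen with earlier results of these data known. Genes named are the markers and rule genes, the 12 largest changes in each direction in the first comparison and the 6 largest in each other, called with 1 sign in 3 tumours and above the highest blank code, and up to 4 genes per list. Some genes this rule selects are not reported here. Some further genes of the lists and of the spread between tumours were chosen after their values were seen. Exact 95% intervals cover counting error only, with cells taken as independent.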

Additional observations from a re-analysis of the deposited data

How the results depend on the processing

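The tumour is a block in every fit because both groups of cells come from the same sections. Without the replicate block, members against Cdh1 cells gave 31 higher and 22 lower genes, co-positive against Fn1-only cells 1 and 0, and the other 3 comparisons 0 and 0 by edgeR (22, 25 and 8 genes at an unadjusted p under 0.05 against Krt17-only cells, near members and beside members). With 1 tumour left out, the first comparison gave 27 to 47 higher and 22 to 38 lower, Krt17-only 0 to 4 and 0 to 3, Fn1-only 13 to 31 and 8 to 24, near cells 0 to 17 and 0 to 18, and members beside members 0 to 11 and 0 to 22. With library size alone in place of TMM the higher genes were 30 in the first comparison (27 lower), 1 against Krt17-only cells (0 lower), 26 against Fn1-only cells (42 lower) and 4 beside members (23 lower). DESeq2 called 63 lower genes in the first comparison, 9 against Krt17-only cells, 16 beside members, and 28 higher and 21 lower near members. limma-voom called 11 lower against Krt17-only cells. Radii of 15 and 50 µm gave 8 lower genes near members, and no filter gave 14 lower beside members. Cells without a stromal or immune marker transcript gave 23 higher genes, and there Acta2 (−0.018 log2) and Tagln (−0.14 log2) reversed, as did Klf4 against Krt17-only cells with 1 tumour left out (−0.68 to 0.26). The cause was not tested. The other counts stayed within 1.5 times. The mean member share of 0.938% was 0.482% with a minimum of 5 transcripts of each gene, less by over 1.5 times in each tumour although within the SD between tumours, and 1.07% and 0.916% under the other 2 alternatives. Among single named genes, 1271 alternative values kept direction and side of the threshold, 298 lost the call, 27 gained it and 4 reversed. Depth limits tumour 2, with 156 members, and genes at the level of blank codes.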
